A study of Arabidopsis thaliana with 12 samples.

Results

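The 198 genes described here rose late in Arabidopsis seedlings chilled at 4 °C: on average over wild type and the rdm4 mutant they were little changed after 3 h and higher after 48 h. They were chosen from 11798 genes that current annotation names only by a locus tag, each represented by the probe set with the highest mean. The mean of the 4 arrays at 3 h had to lie within 0.5 of the mean of the 4 arrays at 0 h on the log2 scale, which 10535 genes met. The 200 of these with the largest mean rise at 48 h were taken, and AT5G52760 and AT1G66090 were then left out by name. The choice also named AT1G72900, AT3G48640 and AT1G19020 for leaving out, but these were not among the 200. The values that chose the genes were therefore the mean changes at 3 h and 48 h, and these are given below as a description, with no test. The choice did not use the difference between the genotypes directly, and that difference was tested across the whole array. A gene could still enter through a large rise in either genotype alone, and for such genes a difference is partly built in.

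The study hybridised leaf RNA of 2-week-old seedlings to 12 single-colour Affymetrix ATH1 arrays, 2 for each of 6 groups. The groups were WT before chilling (0 h), WT after 3 h and after 48 h at 4 °C, and the rdm4 mutant at the same 3 times. All seedlings grew on MS plates in long days, with at least 30 seedlings to a plate, and the replicates are labelled as biological and grown in different chambers. RDM4 encodes a protein related to the yeast polymerase-associated factor Iwr1 and is known from RNA-directed DNA methylation in Arabidopsis.

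The labels conflict in several places. Titles call the wild type C24 while other fields give Col, the genotype field of the mutant names an overexpression construct, 35S::RDM4, while its titles say mutant, and the free-text descriptions of replicate 2 arrays name other treatments. The groups follow the titles, and no value of the RDM4 transcript was used to test them. Unchilled plants were sampled only at 0 h, so chilling cannot be told apart from age, nor at 3 h from time of day. By the hours in the labels, 48 h falls at the same time of day as 0 h. In whole leaf samples, more RNA per cell and more cells of one type cannot be told apart either.

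Chilling without freezing sets off cold acclimation in Arabidopsis. Within hours the CBF transcription factors are induced and switch on COR genes, and over the following days metabolism, protein folding, RNA processing and ribosome assembly adjust to the low temperature. Several factors for RNA processing and ribosome assembly are needed for Arabidopsis to grow in the cold. Of the 198 genes, 4 were matched by name among the synonyms in the RefSeq gene table: NLE, PES, RH57 and coilin. The count rests on a search for these names only. The other genes are given by locus tag, with no role.

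Replicate arrays correlated at r = 0.997 to 0.999 over all probe sets. The genotype difference reversed sign at 3 h across the whole array: of the probe sets called at both 0 h and 3 h, 92.7% had opposite signs, and of those called at both 3 h and 48 h, 78.4% did, whereas 77.8% of those called at both 0 h and 48 h had the same sign. Whether the genotype labels of the 3 h arrays are exchanged could not be settled from the files, so every 3 h value given by genotype below is that of the arrays labelled WT or rdm4. The counts that turn on these labels are given both ways, the exchange being an alternative chosen after seeing the data. The differences at 0 h and 48 h and the difference of the 48 h responses use no 3 h array, and the mean 3 h change does not depend on which 3 h arrays are which genotype. All 3 measured leaf photosynthesis markers were well expressed, with a summed linear level of 27979 to 38977. The summed level of the 5 root markers (PYK10, EXPA7, EXPA18, AT5G17820 and AT4G30170) differed between groups: it was 1662 to 1689 in WT at 0 h, 6619 on both WT arrays at 3 h and 3547 to 3549 in WT at 48 h. The sum for rdm4 was 4210 to 4275 at 0 h, 3963 to 4233 at 3 h and 3329 to 3504 at 48 h. EXPA7 was among the dimmest 30% of probe sets in WT at 0 h and 48 h and in rdm4 at 0 h and 3 h. The 3′ minus 5′ difference of the GAPDH control was 0.92 in WT and 0.72 in rdm4 at 0 h, 0.67 and 0.79 at 3 h, and 0.54 and 0.57 at 48 h. For the actin control it was 0.47 and 0.41 at 0 h, 0.57 and 0.51 at 3 h, and 0.61 and 0.61 at 48 h. For ubiquitin it lay between 0.998 and 1.06 in all groups. At 48 h GAPDH was thus lower and actin higher than at 0 h in both genotypes. The part of root tissue or RNA quality in the genotype differences below was not tested.

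The median of the 198 genes was 6.49 and 6.45 on the log2 scale in the WT arrays at 0 h, 6.76 and 6.76 at 3 h, and 8.10 and 8.05 at 48 h. The median for rdm4 was 6.53 and 6.56 at 0 h, 6.37 and 6.45 at 3 h, and 8.27 and 8.25 at 48 h. The 4 arrays at 48 h thus stood above all others, and the ordering of the genotypes at 3 h, by the labels as given, was opposite to that at 0 h and 48 h. By gene, the mean rise at 48 h ran from 1.24 to 3.49 with a median of 1.52, or 2.36-fold to 11.3-fold, while the median over all genes named only by a tag was -0.01. The mean change at 3 h was above 0 in 141 genes and below 0 in 57, with a median of 0.14. The lowest rises kept were those of AT3G55640 (1.245), AT2G47010 (1.239) and AT2G40360 (1.238), and the highest left out those of AT2G43320 (1.236), AT2G32140 (1.235) and AT4G31140 (1.232). AT5G62150 and AT4G34150 came nearest to the 3 h limit, with mean changes of 0.498 and 0.495, and AT4G32870 and AT5G23850 lay just past it at 0.5003 and 0.5018.

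**Figure D1:**
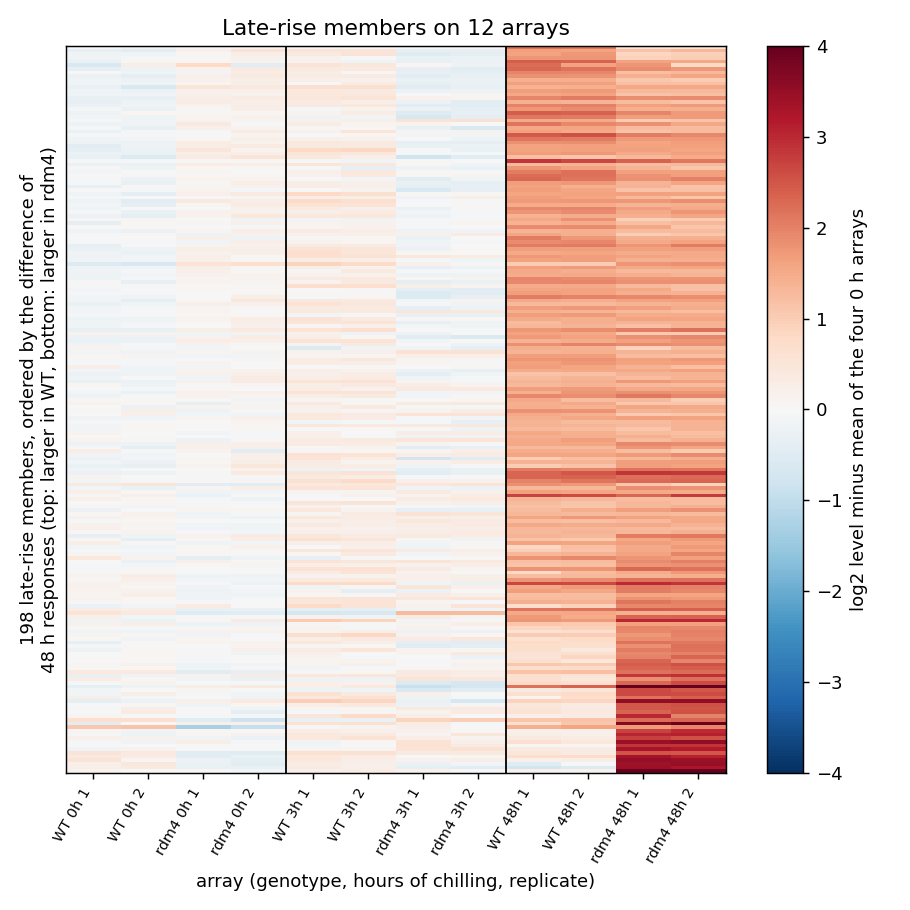
Log2 level of the 198 late-rise genes (rows) on the 12 arrays (columns), minus each gene's mean of the 4 arrays at 0 h; colours stop at 4 either way. All 4 arrays at 48 h are higher for most genes, and at the bottom a block of genes is high on the 2 rdm4 arrays at 48 h and near 0 on the WT arrays.

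The rise was not shared equally. In WT the change at 48 h had a median of 1.56 and ran from -0.93 to 2.80; in rdm4 the median was 1.51 and the range 0.59 to 4.86. A rise of at least 1 on the log2 scale was reached in WT by 159 genes and in rdm4 by 190, of which 151 reached it in both, 8 in WT alone and 39 in rdm4 alone. The signed change was under 0.5 in no gene in rdm4 and in 20 genes in WT, of which 4 were below their 0 h level. Because the genes were chosen on the mean of both genotypes, a large rise in one genotype was enough to bring a gene in.

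AT5G51440 had the largest mean rise, 3.49. Its log2 levels in WT were 4.51 and 4.67 at 0 h, 5.07 and 5.25 at 3 h, and 7.04 and 7.25 at 48 h. In rdm4 they were 5.11 and 5.23 at 0 h, 3.99 and 4.2 at 3 h, and 9.58 and 9.61 at 48 h. The rdm4 arrays were above the WT arrays at 0 h and 48 h and below them at 3 h, with no overlap at any time. The rise was 2.56 in WT and 4.43 in rdm4, a difference of 1.87 ± 0.14 (SE, n = 2 arrays a group; adjusted p = 1.14e-06). WT at 0 h and rdm4 at 3 h were among the dimmest 30% of probe sets, where fold changes tend to be understated.

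AT1G51380 had almost equal values of the rise in both genotypes. Its levels were 4.89 and 4.94 in WT and 5.20 and 5.53 in rdm4 at 0 h, 5.63 and 5.73 against 4.73 and 4.84 at 3 h, and 7.46 and 7.62 against 8.00 and 7.96 at 48 h. The rise was 2.62 in each, and the difference of -0.0024 ± 0.14 was not called (adjusted p = 0.994). Of the 12 genes with the largest mean rise, 7 rose more in rdm4: AT5G51440, AT3G01830, AT2G32190, AT1G43910, AT5G59240, AT3G09440 and AT4G30470. AT4G33905 and AT4G04940 rose more in WT, by differences of -0.60 and -0.66, and AT1G51380, AT2G22590 and AT3G07720 were not called.

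Across all 198, the rise differed between the genotypes in 124 genes. It was larger in rdm4 in 59 genes, against a background of 9.47% of all probe sets called in that direction, and larger in WT in 65, against a background of 12.7%. These shares, 29.8% and 32.8% of the genes, were above the background, which also holds probe sets that did not respond to chilling. The choice also took in 39 genes that rose by at least 1 in rdm4 alone and 8 in WT alone. For these a difference is partly built in. The 65 genes with the larger rise in WT had modest differences, with a median of -0.58 between a median rise of 1.86 in WT and 1.27 in rdm4. The 59 with the larger rise in rdm4 had a median difference of 1.73, between 0.75 in WT and 2.51 in rdm4. The remaining 74 rose by a median of 1.52 and 1.45. Genes with at least as large a mean rise that had already risen by 0.5 or more at 3 h numbered 174, of which 47.7% rose more in rdm4 and 19.5% more in WT. The difference between those shares and the shares of the late genes was not tested.

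**Figure D2:**
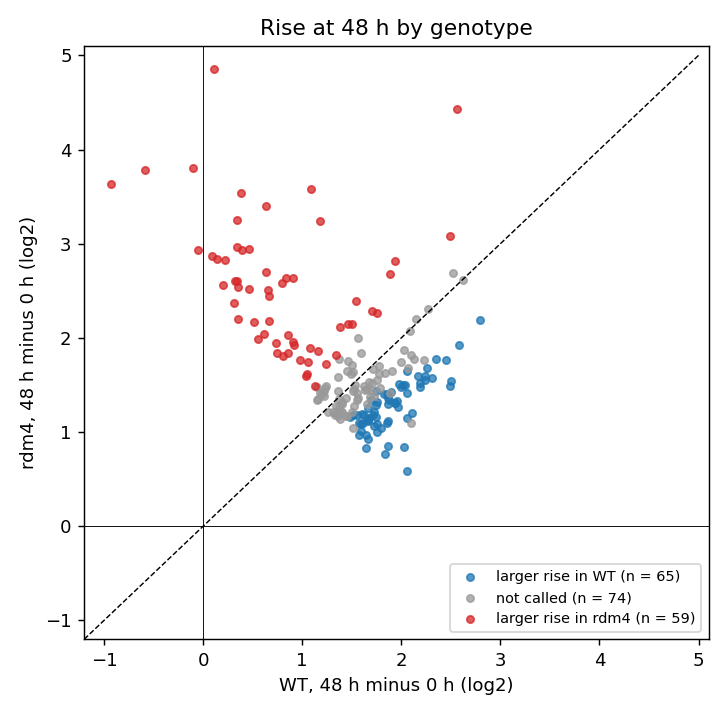
Change from 0 h to 48 h of each of the 198 genes in WT (horizontal) and rdm4 (vertical), log2 scale, coloured by whether the 2 changes differed (limma, adjusted p under 0.05); the dashed line marks equal change. The 65 genes with the larger rise in WT lie close below the line, and many of the 59 with the larger rise in rdm4 lie near 0 in WT.

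Several genes with large differences were near or below their 0 h level in WT at 48 h. They entered the choice through their rise in rdm4. Their differences are thus partly built in, and the p-values are no separate evidence. The levels of AT3G01830 in WT were 3.70 and 3.54 at 0 h and 3.75 and 3.71 at 48 h, all among the dimmest 30% of probe sets. In rdm4 they were 3.58 and 3.45 at 0 h, 3.72 and 3.54 at 3 h, and 8.14 and 8.59 at 48 h. Only the rdm4 arrays at 48 h stood apart, and the difference of the 48 h responses was 4.75 ± 0.18 (adjusted p = 2.62e-09). AT2G32030 went in WT from 5.73 and 5.84 to 4.76 and 4.95 and went from 5.19 and 5.22 to 8.93 and 8.75 in rdm4. The genotypes did not overlap at any time, and the difference of responses was 4.56 ± 0.12 (adjusted p = 2.99e-10). AT1G24140 followed the same course, with changes of -0.59 in WT and 3.78 in rdm4 and a difference of 4.36 ± 0.19 (adjusted p = 8.63e-09). AT1G78410 changed by -0.10 and 3.81, a difference of 3.91 ± 0.16 (adjusted p = 5.67e-09). AT4G34150, the fourth gene below its 0 h level in WT, changed by -0.05 in WT and 2.94 in rdm4.

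The genes with the larger rise in WT rose in both genotypes. Of these 65, the 48 h level was lower in rdm4 in 35, higher in 1 and not called different in 29. AT1G06540 had the largest difference of rises in this set. It went from 3.94 and 4.1 to 6.10 and 6.05 in WT and from 3.85 and 3.84 to 4.43 and 4.43 in rdm4. The rdm4 arrays at 48 h stayed among the dimmest 30%, and the responses differed by -1.47 ± 0.10 (adjusted p = 4.07e-07). AT3G49320 rose from 4.95 and 4.96 to 6.73 and 6.84 in WT and from 5.17 and 5.34 to 5.97 and 6.07 in rdm4, a difference of -1.07 ± 0.12 (adjusted p = 4.64e-05). In this gene the rdm4 arrays lay above the WT arrays at 0 h and below them at 48 h. AT1G23100 differed by -1.19 and AT3G07750 by -1.01 in the same direction.

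**Figure D3:**
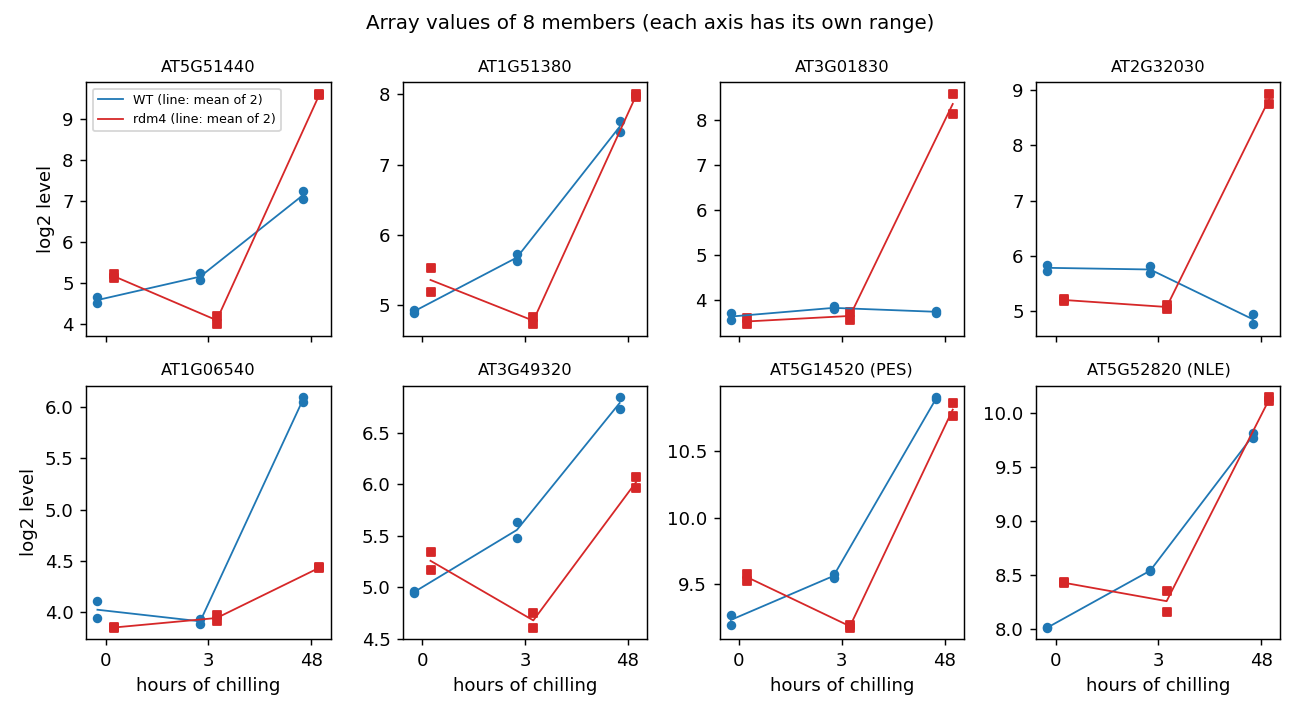
Log2 level of 8 late-rise genes at 0, 3 and 48 h of chilling; points are single arrays (WT circles, rdm4 squares) and lines join the means of 2 arrays, and each panel has its own vertical range. AT3G01830 and AT2G32030 are high only on the rdm4 arrays at 48 h, AT1G06540 and AT3G49320 rise more in WT, and the rise of PES differs by less than that of either.

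Before chilling, rdm4 was higher in 68 of the 198 genes (background 16.1%) and lower in 31 (background 13.7%). AT5G17760 was highest relative to WT, at 8.33 and 8.43 against 7.22 and 7.12, a difference of 1.21 ± 0.08 (adjusted p = 2.51e-07). AT1G79470 (0.88), AT2G39795 (0.85) and AT1G23100 (0.79) were next. AT4G27657 was lowest, at 5.18 and 5.55 in rdm4 against 7.56 and 7.60, a difference of -2.21 ± 0.13 (adjusted p = 1.2e-07), before AT3G47540 (-1.31), AT5G55450 (-0.94) and AT4G34150 (-0.90). All 4 highest genes then rose more in WT and all 4 lowest more in rdm4, a difference of responses that is built in part from the same 0 h arrays. The summed root marker level was also higher in rdm4 at 0 h, by the values given above.

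After 48 h, rdm4 was higher in 72 genes (background 16%) and lower in 46 (background 19%). The 4 highest were AT3G01830 (4.64), AT2G32030 (3.98), AT1G24140 (3.68) and AT1G78410 (3.29), which all entered the choice through their rise in rdm4. The 4 lowest were AT1G06540 (-1.65), AT4G26600 (-0.82), AT3G07750 (-0.81) and AT3G03770 (-0.77). AT3G03770 is a case where the levels differed and the rises did not: it was lower in rdm4 at 0 h (-0.85) and at 48 h, and it rose by 1.36 in WT and 1.44 in rdm4.

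The difference of the rises could lie at 0 h, at 48 h or at both. The following counts describe the sets and are no separate evidence, since the difference of responses is built from the same arrays. Of the 59 genes with the larger rise in rdm4, 35 did not differ by the test at 0 h and were higher in rdm4 at 48 h, 16 were lower at 0 h and higher at 48 h, 5 were higher at both times, and 3 were lower at 0 h only. Of the 65 with the larger rise in WT, 24 were higher in rdm4 at 0 h only, 20 were lower at 48 h only and 15 were both, while 1 was higher at both times and 5 were called at neither. For 24 of the 65, then, the smaller rise in rdm4 went with a higher starting level and a 48 h level that was not called different.

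**Figure D4:**
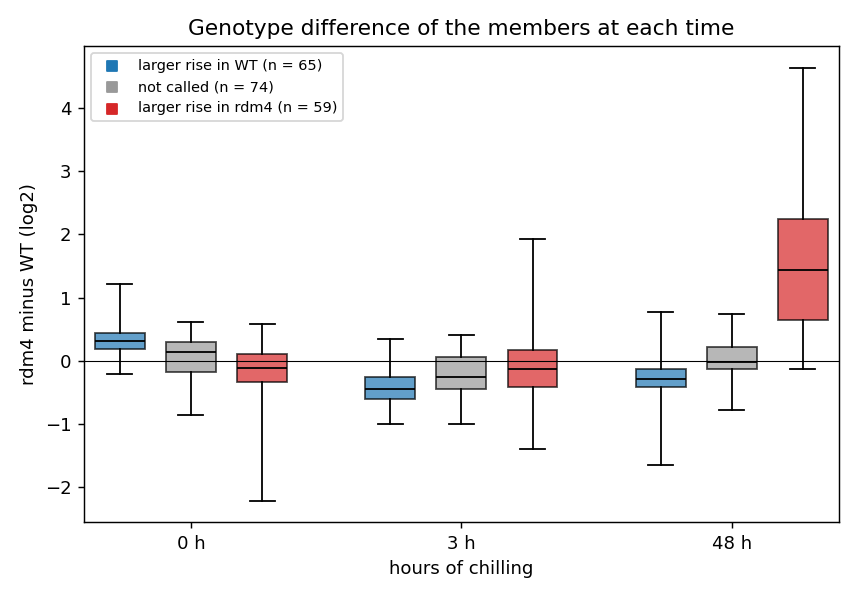
Difference between rdm4 and WT (log2) of the 198 genes at 0, 3 and 48 h; boxes run from the lower to the upper quartile with the median as a line, whiskers reach the lowest and highest gene, and colours give the call on the 48 h rise. The genes with the larger rise in WT lie mostly above 0 at 0 h and below 0 at 3 h and 48 h, and those with the larger rise in rdm4 stand well above 0 only at 48 h; the sign at 3 h follows the labels as given.

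At 3 h the levels on the arrays labelled rdm4 were lower in 108 genes (background 19.1%) and higher in 15 (background 17.6%). With the 3 h labels exchanged, rdm4 would be higher in the 108 and lower in the 15, and the sign of each 3 h difference in this paragraph would turn. The higher count was 8 without the first rdm4 array at 3 h. The lower genes were spread over the sets, whose 48 h calls share no array with the 3 h levels: 49 of the 65 with the larger rise in WT, 37 of the 74 not called and 22 of the 59 with the larger rise in rdm4. Of the 15 higher genes, 11 were among those 59. AT1G43910 was lowest relative to WT, at 4.81 and 4.40 against 6.07 and 5.94, a difference of -1.40 ± 0.11 (adjusted p = 1.59e-06), followed by AT5G51440 (-1.06), AT5G59240 (-1.05) and AT2G47010 (-1.01). AT5G55450 was highest, at 11.18 and 11.20 against 9.21 and 9.32, a difference of 1.93 ± 0.07 (adjusted p = 4.38e-09), followed by AT3G47540 (1.22), AT5G52740 (0.70) and AT1G26380 (0.54).

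By the labels as given, the small mean change at 3 h often joined changes of opposite sign in the genotypes. In 103 genes (52.0%) the 3 h change was above 0 in WT and below 0 in rdm4, against 24.7% of the 10535 genes that met the 3 h limit. The opposite held in 28, both changes were above 0 in 59 and both below 0 in 8, patterns for which no background share is given here. With the 3 h labels exchanged, a rise in WT with a fall in rdm4 was found in 8 genes (4.04%, against 20.6%) and the opposite in 62 (31.3%, against 15.1%). Both changes were then above 0 in 107 (54.0%, against 23.1%) and both below 0 in 21 (10.6%, against 41.1%). By the labels as given, the change was at least 0.5 in size in WT in 62 genes, in rdm4 in 38, and in one or the other in 83. The 3 h response was lower on the arrays labelled rdm4 in 106 genes (background 22.4%) and higher in 31 (background 20.8%). With the labels exchanged it was lower in 8 (against 5.28% of all probe sets) and higher in 34 (against 6.22%), so the direction in which the late genes stood above the background turned with the labels.

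By the labels as given, AT5G55450 moved furthest apart at 3 h. Its levels went from 10.46 and 10.32 to 9.21 and 9.32 in WT and from 9.44 and 9.47 to 11.18 and 11.20 in rdm4, so its mean change was small while the responses differed by 2.87 ± 0.10 (adjusted p = 9.75e-10). At 48 h it stood at 11.45 and 11.48 in WT and 11.34 and 11.35 in rdm4. AT3G47540 (2.53), AT4G27657 (2.23) and AT5G52740 (1.09) differed in the same direction. AT1G43910 rose in WT from 4.74 and 4.86 to 6.07 and 5.94 and fell in rdm4 from 5.30 and 5.47 to 4.81 and 4.40, a difference of -1.99 ± 0.16 (adjusted p = 9.51e-07). At 48 h it was 6.0 and 5.96 in WT and 8.63 in both rdm4 arrays, so its level on the WT arrays at 48 h was no higher than on the arrays labelled WT at 3 h. With the labels exchanged, the 3 h difference would be -0.99 for AT5G55450 and 0.81 for AT1G43910. AT5G17760 (-1.93), AT1G79470 (-1.87) and AT2G39795 (-1.81) also had the lower 3 h response on the arrays labelled rdm4.

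By the labels as given, among the late genes the sign of the genotype difference mostly turned between 0 h and 3 h, as on the whole array, while the shares that involve 48 h were nearer to an even split. The difference of these shares from those of the whole array was not tested. Of 78 genes called at both 0 h and 3 h, 69 had opposite signs (88.5%). Of 68 called at both 3 h and 48 h, 35 did (51.5%, against 78.4% on the whole array), and of 52 called at both 0 h and 48 h, 21 had the same sign (40.4%, against 77.8%). The summed root marker level followed the whole array at 0 h and 3 h, being higher in rdm4 at 0 h and lower on the arrays labelled rdm4 at 3 h.

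**Figure D5:**
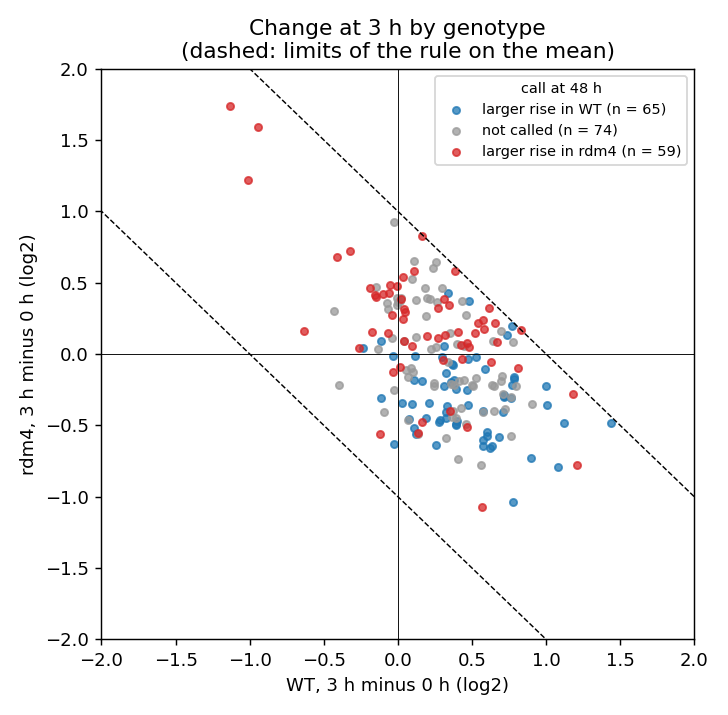
Change from 0 h to 3 h of the 198 genes in WT (horizontal) and rdm4 (vertical), log2 scale, coloured by the call on the 48 h rise; dashed lines are the limits that the choice of genes set on the mean. By the 3 h labels as given, 103 genes lie in the quadrant of a rise in WT and a fall in rdm4, and 3 genes lie at the upper left with a fall in WT near 1 and a rise in rdm4 over 1.

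The 4 genes found by name act in the nucleus and nucleolus, which follows from the names that were searched for. PES (AT5G14520, PESCADILLO) works in maturation of the large ribosomal subunit and rose from 9.19 and 9.27 to 10.88 and 10.90 in WT and from 9.58 and 9.53 to 10.85 and 10.76 in rdm4. The rdm4 arrays were higher than the WT arrays at 0 h and slightly lower at 48 h, with no overlap, and the rise was larger in WT by 0.40 ± 0.09 (adjusted p = 0.00711). NLE (AT5G52820, NOTCHLESS), which acts on the precursor of the same subunit, had rises of 1.78 (WT) and 1.70 (rdm4), and their difference of -0.08 ± 0.10 was not called (adjusted p = 0.671). RH57 (AT3G09720), a DEAD-box RNA helicase of ribosomal RNA processing, rose by 1.68 and 1.15, a difference of -0.53 ± 0.16 (adjusted p = 0.0310). That call was lost without any one of 5 arrays and after repeated quantile normalization (adjusted p 0.057 to 0.114). Coilin (AT1G13030), the scaffold of Cajal bodies, rose by 1.45 and 1.37, and the difference was not called (adjusted p = 0.683).

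Genes that carry a symbol were outside the choice, and 31 of 1552 met the same limits (2.00%, against 1.70% of genes named by a tag). Their rises differed in 20: 13 rose more in rdm4, 7 more in WT and 11 were not called. The genes named here from these 31 were picked after their values were seen. Among those with the larger rise in WT were both core subunits of RNA polymerase I, the enzyme that transcribes ribosomal RNA: NRPA1 rose by 1.97 in WT and 1.48 in rdm4 (adjusted p = 0.00657) and NRPA2 by 1.5 and 1.06 (adjusted p = 0.0376). The largest differences in that direction were those of JMT (-1.23) and ASPGB1 (-1.01). YAO, a nucleolar protein, rose by 2.08 and 1.86, and its difference was not called (adjusted p = 0.160). Among those with the larger rise in rdm4 were the chaperone Hsp70-2 (1.88 and 3.27) and its partner Fes1A (0.90 and 2.67), and the calmodulin-like gene CML37 (0.05 and 3.04). UGT78D1, which adds rhamnose to flavonols, rose by 2.93 and 3.58.

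The gene lists of cold acclimation had few members with a symbol on the array table, and none met the limits of the late rise. Here measured means having a probe set annotated to that gene alone, so a gene that was not measured may still be on the array. Of 6 genes listed for nucleolus and ribosome assembly, 0 were measured in this sense. Of 5 measured genes of the CBF regulon out of 15, 4 were higher at 48 h over both genotypes together (background 27.4%) and 1, COR27, was lower by 0.12 (background 30.3%), a call that was lost in 12 of the alternative settings. COR15A, which protects chloroplast membranes in freezing, rose at 48 h by 1.68 in WT and 2.59 in rdm4. At 3 h it went from 12.38 to 12.14 on the arrays labelled WT and from 11.02 to 13.41 on those labelled rdm4, a difference of responses of 2.62 (adjusted p = 5.18e-09). COR15B and COR27 likewise moved little on the arrays labelled WT at 3 h, from 12.15 to 12.25 and from 10.97 to 10.93, and went from 11.35 to 13.24 and from 10.64 to 11.998 on those labelled rdm4. With the 3 h labels exchanged, COR15A would go from 12.38 to 13.41 in WT and from 11.02 to 12.14 in rdm4. COR15B would go from 12.15 to 13.24 in WT and from 11.35 to 12.25 in rdm4. COR27 would go from 10.97 to 11.998 in WT and from 10.64 to 10.93 in rdm4. COR15A, COR15B and COR27 would then rise at 3 h in both genotypes. COR47 and LTI30, the other measured genes of the regulon, rose at 3 h in both genotypes by either labelling. By the labels as given, COR47 went from 11.28 to 12.62 in WT and from 11.42 to 13.15 in rdm4. LTI30 went from 9.22 to 11.50 in WT and from 8.45 to 12.19 in rdm4. LTI30, a dehydrin, rose at 48 h by 3.62 and 3.95. Also over both genotypes together, all 4 measured genes of flavonoid and anthocyanin synthesis were higher at 48 h, with CHIL rising by 3.77, and so were all 3 measured genes for sugars and solutes, with the sucrose transporter SWEET13 rising by 4.31. SAG101, the single measured gene of salicylic acid defence, fell by 0.29 in WT (adjusted p = 0.00842) and rose by 0.65 in rdm4 (adjusted p = 1.53e-05), responses that differed by 0.94 (adjusted p = 6.61e-05). All 5 root markers were higher and all 3 leaf markers lower at 48 h over both genotypes together. The responses of 3 root markers differed: PYK10 rose by 1.01 in WT and fell by 0.35 in rdm4, AT4G30170 rose by 2.34 and fell by 0.39, and AT5G17820 rose by 2.29 and 0.63.

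Level at 0 h and gene length were no part of the choice, and their medians by set are given without a test. The median log2 level at 0 h was 7.12 for genes with the larger rise in WT, 6.74 for those not called and 5.40 for those with the larger rise in rdm4, against 5.78 over all genes named by a tag. Levels of different probe sets are not strictly comparable. Of 28 genes among the dimmest 30% of probe sets in either genotype at 0 h, 20 had the larger rise in rdm4. The median gene length in the RefSeq table was 2449 bases for the larger rise in WT, 2430.5 for those not called and 1897 for the larger rise in rdm4, against 2081 over all genes named by a tag.

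Over the 12 arrays the genes correlated with their own mean profile at r = 0.61 to 0.99, with a median of 0.95 and 150 genes over 0.9. These points share arrays and the genes were chosen to share this course, so the values are a description. NLE was most like the mean profile (r = 0.992), before AT1G61640 (0.990), AT4G33040 (0.990) and AT5G42150 (0.989). The 5 chromosomes held 57, 27, 40, 32 and 42 of the genes.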

How the data were processed

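Leaf RNA was labelled as cRNA and hybridised to ATH1 arrays, per the labels' protocols. The authors deposited log2 expression values per probe set; per the sources used here, their summarisation, normalization and genome build are not stated. The values were used as deposited. Of 22810 probe sets, 64 controls were left out. In the platform annotation 13513 probe sets had 1 gene (13436 matched the RefSeq table), 503 had several and 8730 had no entry. The 6 group means were fitted to all 12 arrays with limma 3.58.1 (lmFit, eBayes) in R 4.3.3; the residual degrees of freedom were 6 and the prior ones 5.975. Benjamini-Hochberg adjustment ran over 22746 probe sets, and a call is an adjusted p under 0.05. The procedure was tested on simulated data. Tables were made with Python 3.11.15 and pandas 2.3.3.

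With 2 arrays a group, the number of arrays limits the precision, and p-values measure the spread between these samples. Errors of differences are standard errors from the fit. Dim probe sets are those in the lowest 30% of a group's means. Genes named in the text are the 12 with the largest mean rise and up to 4 called genes each way in each genotype contrast. Those at the edges of the choice and the 4 most like the mean profile are also named. NLE, PES, RH57 and coilin were found by a search of the RefSeq synonyms for chosen names. The genes, the lists and these rules were chosen with earlier results of these data known. Alternatives changed the normalization, the probe set filter, the eBayes options, the arrays fitted, the replicate block, the arrays left out and, after seeing the data, the genotype labels of the 3 h arrays. Sequences were not used here.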

Additional observations from a re-analysis of the deposited data

Results flagged for a closer look

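The responses to chilling differed between WT and rdm4, by a test of the difference itself, in 59 genes called higher and 65 called lower for the 48 h response and in 31 higher and 106 lower for the 3 h response. For genes that entered the choice through a rise at 48 h in either genotype alone, the 48 h difference is partly built in. All values here are differences of log2 responses, rdm4 minus WT. At 48 h, the named genes with the larger rise in rdm4 were AT3G01830 (4.75), AT2G32030 (4.56), AT1G24140 (4.36), AT1G78410 (3.91), AT2G32190 (2.49), AT1G43910 (2.06), AT5G51440 (1.87), AT5G59240 (0.88), AT3G09440 (0.80) and AT4G30470 (0.59). Those with the larger rise in WT were AT1G06540 (-1.47), AT1G23100 (-1.19), AT3G49320 (-1.07), AT3G07750 (-1.01), AT4G04940 (-0.66), AT4G33905 (-0.60), RH57 or AT3G09720 (-0.53) and PES or AT5G14520 (-0.40).

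At 3 h, the response was higher in rdm4 for AT5G55450 (2.87), AT3G47540 (2.53), AT4G27657 (2.23) and AT5G52740 (1.09). It was lower for AT1G43910 (-1.99), AT5G17760 (-1.93), AT1G79470 (-1.87) and AT2G39795 (-1.81). All 3 h values follow the 3 h genotype labels as given, and whether these are exchanged could not be settled. Groups of 2 arrays are too small to look for single outlying arrays.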

How the results depend on the processing

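The alternatives other than the exchange of the 3 h labels gave 983 values for 55 results on single named late genes. Of these values, 969 kept their direction and their side of the threshold. Another 6 lost the call, all of them for RH57, and 8 changed sign, all of them uncalled. Genes that carry a symbol, such as COR27, are outside these counts. The changes of sign in the difference of 48 h responses were those of AT1G51380 (0.025 after centring each array, 0.059 after repeated quantile normalization, and 0.023, 0.075, 0.16 and 0.021 with 1 array left out, over a range of -0.17 to 0.16), AT2G22590 (-0.085 without the second rdm4 array at 48 h, up to 0.41) and AT3G07720 (-0.025 without the first WT array at 0 h, up to 0.099). Leaving out 1 array at a time gave 55 to 59 genes with the larger 48 h rise in rdm4 and 45 to 61 with the larger rise in WT. At 0 h it gave 51 to 71 higher and 24 to 33 lower, at 3 h 8 to 15 and 84 to 109, and at 48 h 60 to 74 and 31 to 49. For the 3 h responses it gave 23 to 32 higher and 97 to 105 lower. The lowest of the 3 h counts, 8, came without the first rdm4 array at 3 h.

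Replicate numbers paired the samples weakly at most: of 15 pairs of groups, 4 had deviations correlated over 0.1 (r from -0.15 to 0.27). The highest values were 0.27 for rdm4 at 0 h with rdm4 at 48 h and 0.19 for WT at 48 h with rdm4 at 0 h. WT and rdm4 at 48 h gave 0.17. With the replicate number as a block, 59 genes had the larger 48 h rise in rdm4 and 65 in WT, as without it, and COR27 was no longer called. Because descriptions of replicate 2 arrays conflict with their titles, each replicate was also taken alone, an alternative chosen after seeing the data. The direction was kept by 59 of 59 and 65 of 65 genes in each. These genes had been called from both replicates together, so this outcome was nearly fixed in advance. It is a description and does not test the labels of replicate 2. The choice itself kept 195 of the 198 genes after centring, 194 after quantile normalization, 188 without the dimmest probe sets, 137 with a limit of 0.25 on the 3 h change, and 174 to 194 with 1 array left out. Dim probe sets limit the rises of 28 genes, whose 0 h levels lie near the low end of the array.

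With the 3 h genotype labels exchanged, an alternative chosen after seeing the data, the 3 h level was higher in rdm4 in 108 genes and lower in 15, and the 3 h response was higher in 34 and lower in 8. The differences in 3 h level became 1.40 for AT1G43910, 1.06 for AT5G51440, 1.05 for AT5G59240, 1.01 for AT2G47010, -1.93 for AT5G55450, -1.22 for AT3G47540, -0.70 for AT5G52740 and -0.54 for AT1G26380. The differences of 3 h responses became 0.81 for AT1G43910 and -0.99 for AT5G55450. Those of AT1G79470 (0.12) and AT2G39795 (0.12) were small against the replicate spread of these genes and are not read as reversals. That of AT5G52740 changed sign to -0.31, a size above the differences between its replicate arrays at 0 h and 3 h. The difference became 0.094 for AT3G47540, no longer called, and kept direction and call for AT4G27657 (2.2) and AT5G17760 (-0.49).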

Other observations

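Of the late genes, 23 formed 12 pairs with at most 2 other genes between them on the chromosome. Only AT3G01820 and AT3G01830 were direct neighbours. Their mean rises were 1.77 and 2.48, but the difference of the 48 h responses was -0.26 for AT3G01820, not called, and 4.75 for AT3G01830. AT5G17760 and AT5G17780, with 1 gene between them, were called in opposite directions, at -0.43 and 0.68. AT5G54700 and AT5G54720 both rose more in rdm4, by 1.17 and 2.69.

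A second probe set existed for 2 late genes, and for each the call on the 48 h responses differed between the probe sets. For AT5G62440 the probe set used gave a mean rise of 1.35 and a difference of -0.33 (adjusted p = 0.0429), and the second one 1.62 and -0.42 (adjusted p = 0.0769). For AT1G79150 the probe set used gave 1.60 and -0.997 ± 0.56 (SE), not called (adjusted p = 0.255), with a replicate SD of up to 0.885, and the second one gave 1.76 and -0.42, called (adjusted p = 0.0197).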
